A study of Mus musculus with 2 samples.

Results

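Selplg, Cd44, Pecam1, Icam1, F11r, Cd47, Adam8 and Adam17 encode proteins of neutrophil rolling, firm contact and passage between endothelial cells. They were taken by name from the 35522 features of both expression tables, whatever their values, and all 8 were found. Neutrophils positive for CD11b, high for Ly6G and low or negative for Ly6C were sorted from mouse bone marrow and grown with 10 ng/ml GM-CSF, a myeloid growth factor that both cultures received. Balb/C mice of 5 to 8 weeks were used for isolating immune cells, and sorted cells of over 80% purity went into experiments. 1 culture was given PBS for 3 days. The other, ELV-treated in the labels, was given 20 μg/ml exosomes for 3 days. These vesicles came from spheres of the mouse colon cancer line CT26 (sphere-derived cancer stem cells, SDCSCs). Each treatment has 1 library, so no value can be set against a spread between replicates, and pooling of animals is not stated.

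Leukocytes leave the blood in steps. Selectins bind sialylated and fucosylated sugars on P-selectin glycoprotein ligand-1 (PSGL-1, the product of Selplg) and CD44, which lets the cell roll. Integrins then bind ICAM-1 and related proteins to arrest it, and PECAM-1 and JAM-A (the product of F11r) take part in the passage through endothelial junctions. Membrane metalloproteases of the ADAM family cut several of these proteins off the surface, and CD47 signals to SIRPα on phagocytes. In bone marrow, the same proteins take part in holding and releasing neutrophils.

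The values are RPKM, reads scaled to gene length and to the mapped reads of the library, so levels of different genes are compared per length. The PBS-treated library held an estimated 66.0 M (mega) mapped reads and the ELV-treated library 79.1 M, and the 2 highest genes held 21.2% and 8.31% of the summed RPKM. A feature was kept at an RPKM of at least 0.25 in both libraries, and was called higher or lower at a ratio of at least 2 or at most 0.5. Log2 fold changes are ELV-treated over PBS-treated. The median log2 fold change of the 9698 features kept was 0.53, and it was 0.04 among the 1099 features with a mean of 50 RPKM or more. Each change of the 8 genes is therefore also given relative to the median of features of like level, which are those whose mean RPKM lay within 2-fold. Changes of other genes are given without this step unless stated. Counting intervals are 95% intervals of the estimated reads and cover counting error only. Of 15 neutrophil markers, 11 were at least 2-fold lower and 1 higher in ELV-treated cells, beside 5.62% and 31.5% of all features kept. The summed level of these 15 markers was 84719 RPKM in PBS-treated and 30505 RPKM in ELV-treated cells. Most of both sums came from S100a9 (43059 and 13834 RPKM) and S100a8 (32823 and 14382 RPKM). Prtn3 was the marker called higher (1.14 and 2.90 RPKM). Within 2-fold, Mpo (5.48 and 8.42 RPKM) and Elane (2.64 and 3.31 RPKM) rose and Mmp9 (849 and 608 RPKM) fell.

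Between the 2 libraries, the 8 genes ranged from a 3.06-fold lower level of Adam8 to a 4.27-fold higher level of Pecam1 in ELV-treated cells. On the log2 scale this range was -1.61 to 2.09, where the 10th and 90th percentiles of all features kept were -0.66 and 1.90. All 8 passed the filter. Pecam1 and Cd47 were called higher, which is 2 of 8 (25%) where 31.5% of all features kept were called higher. Adam8 was called lower, which is 1 of 8 (12.5%) where 5.62% of all features kept were. The 5 others stayed within 2-fold. Of features with a mean of 50 RPKM or more, which include Selplg, Cd44, Adam8 and Adam17, 12.5% were higher and 11.4% lower. Pecam1 alone was also called at a ratio of 4, a limit that lay inside the counting interval of its ratio (3.89 to 4.68). Of all features kept, 8.52% reached that ratio upwards and 1.14% downwards. The median log2 fold change of the 8 was 0.31, beside 0.53 for all features kept, and 0.18 relative to features of like level. These shares describe 8 genes in 2 libraries and were not tested.

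In PBS-treated neutrophils Adam8 had the highest level of the 8, 484 RPKM, followed by Cd44 at 204 RPKM. Selplg at 154 RPKM and Adam17 at 151 RPKM followed, and the counting intervals of these neighbours overlapped. Cd47 stood at 26.1 RPKM, Icam1 at 22.8, Pecam1 at 2.43 and F11r at 0.32. In ELV-treated neutrophils Cd44 was first at 223 RPKM, ahead of Adam8 at 158, Adam17 at 141 and Selplg at 78.0. The lower 4 kept their order, with Cd47 at 57.9 RPKM, Icam1 at 32.4, Pecam1 at 10.4 and F11r at 0.53. No neighbours overlapped in their counting intervals in this library. The summed level of the 8 was 1045 RPKM in PBS-treated and 702 RPKM in ELV-treated cells. Without Adam8 these sums were 561 and 544 RPKM, so most of the difference was Adam8.

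**Figure D1:**
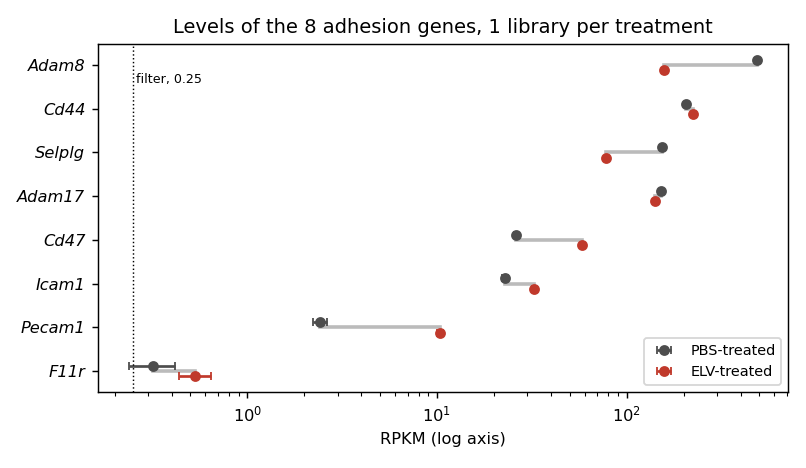
RPKM (horizontal log axis) of the 8 genes (vertical axis) in PBS-treated (grey) and ELV-treated (red) neutrophils, 1 library each, with 95% Poisson counting intervals as bars and the filter of 0.25 RPKM as a dotted line. Adam8 lay at 484 RPKM in PBS-treated and 158 RPKM in ELV-treated cells, and Pecam1 at 2.43 and 10.4 RPKM.

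For the selectin arm of the pathway, the question was whether the ligands and the enzymes that build their sugars moved as a group. Selplg (chromosome 5, 113818536 to 113832644, minus strand, GRCm38) encodes the main ligand of P-selectin on neutrophils. Its level was 154 RPKM in PBS-treated and 78.0 RPKM in ELV-treated cells, a ratio of 0.506 that lies just inside the 2-fold limit. On the log2 scale this was -0.98, and the counting interval (-1.01 to -0.95) spans that limit. It was -1.02 relative to features of like level, where 11.2% of features had a lower log2 fold change. Selplg was past the 2-fold limit under 5 of 9 other settings and negative under all 9.

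Cd44 (chromosome 2, 102811141 to 102901665, minus strand) encodes the receptor of hyaluronan, which neutrophils also use as an E-selectin ligand. Its level was 204 RPKM in PBS-treated and 223 RPKM in ELV-treated cells (0.13 on the log2 scale, counting interval 0.11 to 0.14). The sign of this difference turned with scaling, to -0.40 under median centring, -0.42 after removal of a trimmed mean and -0.05 without the 2 highest genes. The level of Cd44 was 1.33 times that of Selplg in PBS-treated and 2.86 times in ELV-treated cells. The values are per gene, so the standard and variant isoforms of CD44 are not separated.

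Of 33 selectins, selectin ligands and genes of their glycosylation, 24 were kept, 3 of which were higher, 5 lower and 16 within 2-fold. These are shares of 12.5% higher and 20.8% lower, beside 31.5% and 5.62% of all features kept. The median log2 fold change of these 24 was 0.01. Cd24a, which encodes a small mucin-like protein able to bind P-selectin, fell from 363 to 133 RPKM. Gcnt1, the enzyme that adds the core 2 branch on which PSGL-1 carries its selectin-binding sugar, fell from 231 to 95.8 RPKM. St3gal6, a sialyltransferase of the same sugar, fell from 103 to 42.8 RPKM. Selp, which encodes P-selectin, was also lower, at 1.22 RPKM in PBS-treated and 0.57 RPKM in ELV-treated cells.

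The 3 genes called higher lie elsewhere in the route. Slc35a1, the Golgi transporter of CMP-sialic acid, rose from 1.06 to 4.30 RPKM, and Slc35c1, that of GDP-fucose, rose from 3.85 to 9.96 RPKM. St3gal1, which sialylates core 1 sugars, rose from 9.10 to 29.9 RPKM (log2 fold change 1.71). Relative to features of like level, the log2 changes were 1.04 for Slc35a1, 0.73 for Slc35c1 and 1.38 for St3gal1. The fucosyltransferase gene Fut7 stood at 3.51 RPKM in PBS-treated and 6.41 RPKM in ELV-treated cells, and St3gal4 at 21.2 and 32.9 RPKM. Both remained within 2-fold. So did Glg1 of the same list, at 14.82 RPKM in PBS-treated and 28.45 RPKM in ELV-treated cells (log2 fold change 0.94), and Spn, at 3.55 and 2.34 RPKM (-0.60). Fut9, Chst2 and Chst4 were listed at 0 in both libraries, and Sele was at 0.22 and 0.16 RPKM. When features of like level were used for centring, 2 genes of the list were higher and 10 lower, where 13.3% and 13.2% of all features kept were.

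Pecam1 (chromosome 11, 106654217 to 106750628, minus strand) encodes PECAM-1 (CD31), an immunoglobulin-type protein that binds itself at cell junctions and carries inhibitory motifs in its tail. It had the largest increase of the 8, from 2.43 RPKM in PBS-treated to 10.4 RPKM in ELV-treated cells. Its log2 fold change of 2.09 (counting interval 1.96 to 2.23) rests on an estimated 552 and 2826 reads. It was 1.42 relative to features of like level, and 92.4% of those features had a lower log2 fold change. Pecam1 was past the 2-fold limit under all 9 other settings, with values from 1.42 to 2.14. Its PBS level ranked 6325th of all features and its ELV level 4335th.

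PECAM-1 is also made by endothelial cells, platelets and macrophages, so their markers were read beside it. Of 11 endothelial markers, 1 passed the filter, and their summed level was 2.18 RPKM in PBS-treated and 1.14 RPKM in ELV-treated cells. Cdh5, which encodes the junction protein of endothelium, was at 0.02 RPKM in both libraries, and Cldn5 and Emcn were listed at 0 in both. No endothelial marker was above 0.88 RPKM in either library. The 10 platelet and megakaryocyte markers summed to 42.8 RPKM in PBS-treated and 37.4 RPKM in ELV-treated cells. Of these 10, 0 were higher and 2 lower, beside 31.5% and 5.62% of all features kept. Of 13 monocyte and macrophage markers, 9 were kept, 5 higher and 1 lower, beside 31.5% and 5.62% of all features kept. The summed level of the 13 was 468 RPKM in PBS-treated and 724 RPKM in ELV-treated cells. Emr1, which encodes the macrophage protein F4/80, rose from 20.9 to 152 RPKM and Ms4a7 from 1.02 to 16.8 RPKM. C1qc was at 0.27 and 3.79 RPKM and Mertk at 0.04 and 0.48 RPKM. Ly6c2, a marker of inflammatory monocytes with the highest PBS level of the list, fell from 184 to 37.1 RPKM. Cd14 at 118 and 209 RPKM, Cd68 at 83.9 and 146 RPKM and Ccr2 at 0.50 and 0.88 RPKM stayed within 2-fold. In bulk RNA, fewer cells of a type and less RNA per cell cannot be told apart, and the part of RNA from any of these cell types in the Pecam1 value was not tested.

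**Figure D2:**
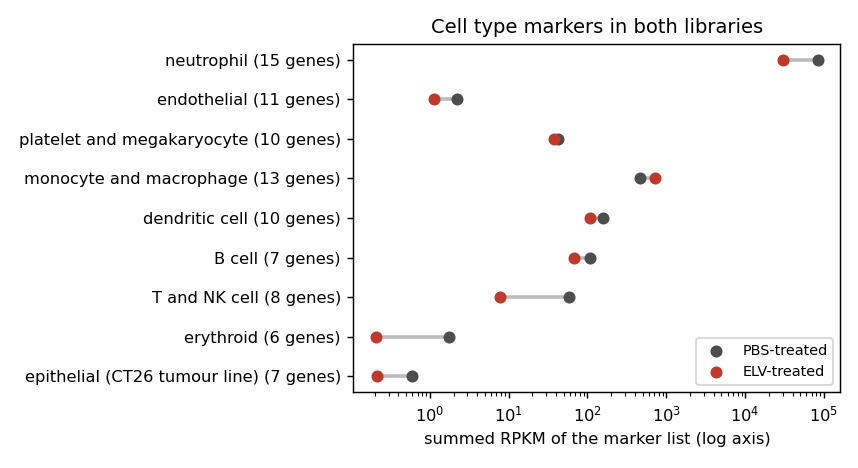
Summed RPKM (horizontal log axis) of 9 lists of cell type markers (vertical axis, with the number of genes found) in PBS-treated (grey) and ELV-treated (red) neutrophils, 1 library each. Monocyte and macrophage markers summed to 468 RPKM in PBS-treated and 724 RPKM in ELV-treated cells. The neutrophil markers summed to 84719 and 30505 RPKM, most of it from S100a8 and S100a9.

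The other lists of cell types had lower sums in the ELV-treated library. The dendritic cell markers summed to 155 and 107 RPKM, the B cell markers to 108 and 67.0 RPKM, and the T and NK cell markers to 57.8 and 7.89 RPKM, of which Cd3d held 56.4 and 7.02 RPKM. Erythroid markers summed to 1.74 and 0.205 RPKM. Epithelial markers, read because the exosomes came from a carcinoma line, summed to 0.590 and 0.215 RPKM.

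Icam1 (chromosome 9, 21015985 to 21028817, plus strand) encodes the counter-receptor of the β2 integrins LFA-1 and Mac-1, and its promoter is a classical target of NF-κB. Its level was 22.8 RPKM in PBS-treated and 32.4 RPKM in ELV-treated cells (0.50 on the log2 scale, counting interval 0.45 to 0.56). Icam1 was thus near the median of all features kept, and its sign turned to -0.02 under median centring and -0.04 with a trimmed mean removed. Relative to features of like level it was 0.23. An annotated antisense gene overlaps 511 of its 4360 exon bases, and use of strand in counting is not stated.

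The promoter windows of Icam1, the member with a known NF-κB response, and of Adam8, the member that was called lower, are shown for their motifs. Both are the 250 bases before the RefSeq transcription start (GRCm38.p6), written 5′ to 3′ on the strand of the gene, with motif matches in capitals. Icam1 is chr9:21015690-21015939, plus strand, and the GENCODE gene start lies 45 bases after the RefSeq start. Adam8 is chr7:139992563-139992812, minus strand.
Icam1: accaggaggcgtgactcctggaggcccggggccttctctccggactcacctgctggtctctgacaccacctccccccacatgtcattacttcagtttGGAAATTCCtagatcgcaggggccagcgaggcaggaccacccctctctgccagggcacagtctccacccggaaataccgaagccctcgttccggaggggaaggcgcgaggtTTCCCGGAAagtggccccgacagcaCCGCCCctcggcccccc
Adam8: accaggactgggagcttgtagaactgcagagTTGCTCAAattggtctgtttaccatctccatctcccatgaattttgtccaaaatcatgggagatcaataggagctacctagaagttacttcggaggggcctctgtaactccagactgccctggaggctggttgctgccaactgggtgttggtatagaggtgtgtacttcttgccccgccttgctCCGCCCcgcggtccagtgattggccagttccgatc

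Motifs were searched on both strands as GGAANTTCC (NF-κB type), TTCNNNGAA (STAT), TGANTCA (AP-1), GAGGAAGT (PU.1), TTNNGCAA (C/EBP), GGGCGG (a GC box) and, as a TATA box, TATAAA. The Icam1 window held GGAAATTCC from base -153 to -145, counted back from the RefSeq start. The NF-κB type motif occurs in 0.844% of 27025 windows of the same length, the first listed for each gene of the table. It also held TTCCCGGAA from base -42 to -34, a STAT motif found in 7.18% of windows. A GC box, found in 32.9% of windows, was on the opposite strand of both genes. The Adam8 window held TTGCTCAA from base -219 to -212, a match to the C/EBP motif on the opposite strand, and 9.55% of windows hold that motif. The matches are letters in a window and were not tested as binding sites. The promoter table held 6 of the 8 genes, without Selplg and Pecam1.

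F11r (chromosome 1, 171437535 to 171464603, plus strand) encodes JAM-A, a tight junction protein that binds itself and the integrin LFA-1. It was the lowest of the 8, at 0.32 RPKM in PBS-treated and 0.53 RPKM in ELV-treated cells, close to the filter of 0.25 RPKM. An estimated 53 and 106 reads stand behind these values, and 3 reads would correspond to 0.0181 and 0.0151 RPKM. Its log2 fold change of 0.73 had the wide counting interval 0.25 to 1.24, which is positive throughout and includes the 2-fold limit. Relative to features of like level it was 0.33, inside the counting interval of the difference itself.

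Cd47 (chromosome 16, 49800533 to 49915010, plus strand) encodes the ligand of SIRPα, whose engagement holds back phagocytosis and which also takes part in neutrophil passage. It rose from 26.1 RPKM in PBS-treated to 57.9 RPKM in ELV-treated cells (1.15 on the log2 scale, counting interval 1.11 to 1.18). It was 0.97 relative to features of like level, where 88.1% of features had a lower log2 fold change. The call was kept under 5 of 9 other settings, with values down to 0.61, and the sign under all 9. The level of Sirpa, which encodes the receptor, was 281 RPKM in PBS-treated and 311 RPKM in ELV-treated cells. Per length, Sirpa was thus 10.7 times Cd47 in PBS-treated and 5.38 times Cd47 in ELV-treated cells. Thbs1, which encodes the secreted CD47 ligand thrombospondin-1, fell from 68.7 to 17.2 RPKM.

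**Figure D3:**
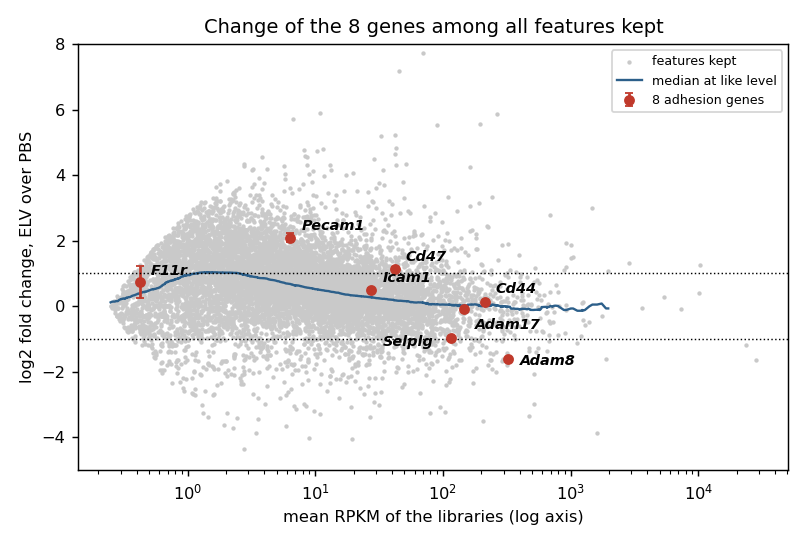
Log2 fold change (vertical axis, ELV-treated over PBS-treated) against mean RPKM (horizontal log axis) for the 9698 features kept (grey) and the 8 genes (red, bars are 95% counting intervals), with the median at like level in blue and the 2-fold limits dotted. Pecam1 at 2.09 and Cd47 at 1.15 lay above the upper limit and Adam8 at -1.61 below the lower one, while Selplg at -0.98 lay on the edge. Icam1 at 0.50 and Cd44 at 0.13 turned negative under other scalings.

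Of 32 junctional and immunoglobulin-type adhesion genes, 18 were kept, 5 of which were higher, 2 lower and 11 within 2-fold. The shares of 27.8% higher and 11.1% lower stand beside 31.5% and 5.62% of all features kept. Their median log2 fold change was 0.43, beside 0.53 for all features kept. Besides Pecam1 and Cd47, Icam2 rose from 5.40 to 16.0 RPKM (log2 fold change 1.57). ICAM-2 is a constitutive ligand of LFA-1. Ctnna1 (α-catenin) rose from 5.69 to 14.3 RPKM, and Bsg (basigin, CD147) from 30.2 to 70.7 RPKM. L1cam fell from 31.5 to 12.3 RPKM. Amica1, which encodes the neutrophil junctional protein JAML, fell from 239 to 101 RPKM. Jam3 was under the filter at 0.65 RPKM in PBS-treated and 0.13 RPKM in ELV-treated cells. Without the 4 members of this list, 3 of 14 genes were higher and 2 lower.

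Adam8 and Adam17 encode membrane metalloproteases that cut adhesion proteins and cytokines off the cell surface. Adam8 (chromosome 7, 139978932 to 139992562, minus strand) is prominent in neutrophils, and PSGL-1 is among the proteins its product can cut. It fell from 484 RPKM in PBS-treated to 158 RPKM in ELV-treated cells. Its log2 fold change was -1.61 (counting interval -1.63 to -1.60), also -1.60 relative to features of like level, where 6.33% of features had a lower log2 fold change. Adam8 stayed past the 2-fold limit under all 9 other settings, from -2.16 to -1.57. The filter and pseudocounts hardly alter a gene of this level, and removing a positive median or trimmed mean lowers it further. These are therefore not 9 separate checks. Its PBS level ranked 67th of all features and its ELV level 284th. Of the 15 neutrophil markers read above, 11 were also called lower in ELV-treated cells, where 5.62% of all features kept were. The part of these markers in the Adam8 value was not tested.

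Adam17 (chromosome 12, 21323509 to 21373632, minus strand) encodes TACE, which sheds TNF. Its level was 151 RPKM in PBS-treated and 141 RPKM in ELV-treated cells (-0.10 on the log2 scale, counting interval -0.11 to -0.08). It was -0.11 relative to features of like level and negative under all 9 other settings, down to -0.64. Adam8 was 3.20 times Adam17 in PBS-treated cells and 1.12 times in ELV-treated cells. Exons of Iah1, on the other strand, overlap 311 of the 7154 exon bases of Adam17, and Iah1 itself was at 4.37 and 6.26 RPKM.

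The genes that regulate ADAM17 were read next. Rhbdf2, which encodes iRhom2, the escort that brings ADAM17 to the surface of myeloid cells, stood at 59.6 RPKM in PBS-treated and 42.0 RPKM in ELV-treated cells (log2 fold change -0.50). Timp3, which encodes its natural inhibitor, was under the filter at 0.28 and 0.02 RPKM. Adam10, the nearest relative of Adam17, stood at 22.9 and 39.3 RPKM (log2 fold change 0.78). Of the tetraspanin partners of ADAM10 that were read, Tspan14 rose from 24.2 to 54.0 RPKM. Tspan5 (7.22 RPKM in PBS-treated and 8.09 RPKM in ELV-treated cells) and Tspan17 (1.53 and 1.45 RPKM) stayed within 2-fold. Tspan15 and Tspan33 were under the filter. Both Adam10 values lay below those of Adam17 per length.

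Of 25 ADAM sheddases and regulators, 15 were kept, 4 of which were higher (26.7%, beside 31.5% of all features kept), 3 lower (20.0%, beside 5.62%) and 8 within 2-fold, with a median log2 fold change of -0.08. Adam9 rose from 6.58 to 25.3 RPKM (log2 fold change 1.94). Adam15 rose from 15.3 to 31.5 RPKM, with the 2-fold limit inside its log2 counting interval (0.99 to 1.10). Mmp14, a membrane-type matrix metalloprotease, rose from 0.59 to 5.04 RPKM (3.09 on the log2 scale, counting interval 2.83 to 3.37). Adam19 fell from 24.1 to 5.17 RPKM (log2 fold change -2.22). Mmp25, a membrane-type matrix metalloprotease of neutrophils, fell from 47.7 to 18.3 RPKM. Within both families some genes thus rose and others fell. Under median centring 2 genes of the list were higher and 6 lower, beside 16.8% and 13.2% of all features kept.

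Genes of proteins that ADAM17 cuts were read as a further list. Of 19 such genes, 12 were kept, 3 of which were higher (25%, beside 31.5% of all features kept), 2 lower (16.7%, beside 5.62%) and 7 within 2-fold. Tnf rose from 72.1 to 225 RPKM, Csf1r from 58.1 to 153 RPKM and Tnfrsf1b, which encodes a TNF receptor, from 136 to 287 RPKM. Csf1r is also among the higher monocyte and macrophage markers read above, so both lists share this value. Il1r2, which encodes a decoy receptor of interleukin-1, fell from 59.5 to 27.8 RPKM. Icam1 and F11r belong to this list too. The files hold RNA alone, so shedding itself was not measured.

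**Figure D4:**
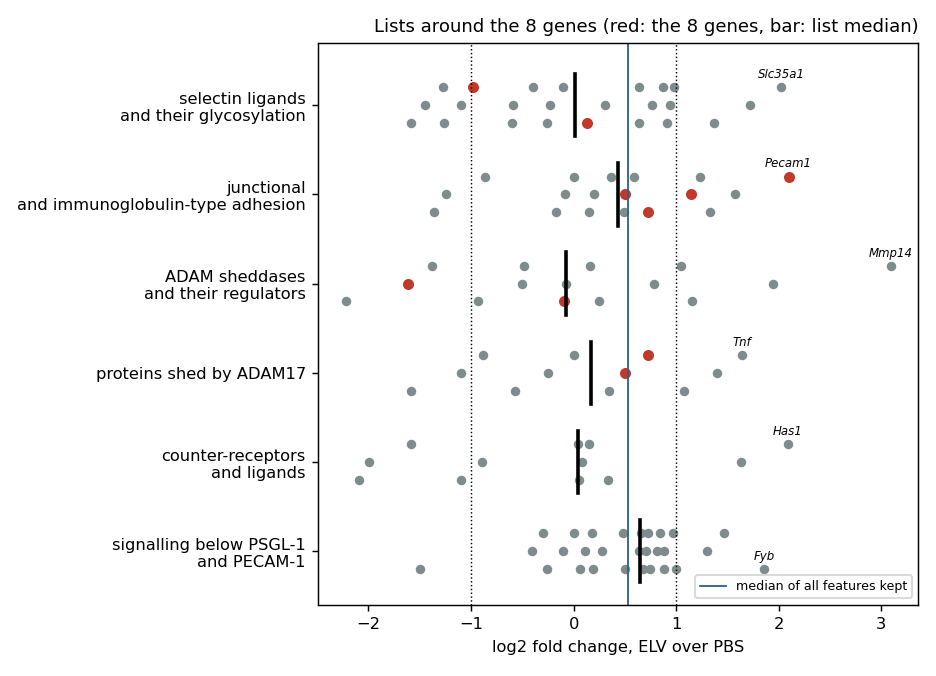
Log2 fold change (horizontal axis, ELV-treated over PBS-treated) of the kept genes of 6 lists (vertical axis), with the 8 genes in red, the list medians as black bars, the median of all features kept (0.53) in blue and the 2-fold limits dotted; the highest gene of each list is named. List medians ran from -0.08 for the ADAM sheddases to 0.64 for the signalling genes.

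The partners that the 8 proteins bind were compared on the same scale. The integrin chains that bind ICAM-1 stayed within 2-fold, with Itgal at 113 RPKM in PBS-treated and 117 RPKM in ELV-treated cells, Itgam at 313 and 393 RPKM and Itgb2 at 480 and 508 RPKM. Cd177, which encodes a neutrophil surface protein that binds PECAM-1, fell from 120.5 to 28.2 RPKM (log2 fold change -2.09). Over the 16 counter-receptors and ligands, 12 were kept, 2 of which were higher (16.7%, beside 31.5% of all features kept), 4 lower (33.3%, beside 5.62%) and 6 within 2-fold, with a median log2 fold change of 0.04. Cd177, Thbs1 and Selp were among those that were lower. The hyaluronan synthase gene Has1 rose from 0.28 to 1.19 RPKM and the hyaluronidase gene Hyal2 from 0.39 to 1.21 RPKM, at low levels in both libraries. The other hyaluronan synthase genes did not rise in this way. Has3 stood at 0.36 RPKM in PBS-treated and 0.37 RPKM in ELV-treated cells, and Has2 was under the filter at 0.40 and 0.03 RPKM. With an RPKM of at least 1 required in both libraries, 0 genes of this list were higher, and the share of all features at that setting was not computed.

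Signalling genes below PSGL-1 and PECAM-1 all passed the filter. Of these 28, 4 were higher (14.3%, beside 31.5% of all features kept), 1 was lower (3.57%, beside 5.62%) and 23 stayed within 2-fold. Most of the 28 had a mean of 50 RPKM or more, where 12.5% of features were higher and 11.4% lower. The median log2 fold change of the 28 was 0.64, which is 0.47 relative to features of like level. The adaptor gene Fyb rose from 125 to 453 RPKM and Fcer1g, which encodes the Fc receptor γ chain through which PSGL-1 signals, from 538 to 1489 RPKM. Ptpn11, which encodes the phosphatase SHP-2 that binds the tail of PECAM-1, rose from 11.1 to 22.3 RPKM, with the 2-fold limit inside its log2 counting interval (0.95 to 1.05). Ptpn6 (SHP-1) stood at 279 and 546 RPKM, within the limit at 0.97. Rasgrp2, which encodes an activator of Rap1 upstream of integrins, fell from 39.3 to 13.9 RPKM. Under median centring 1 gene of this list was higher and 1 lower, where 16.8% and 13.2% of all features kept were.

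The features nearest to each called member were found by distance on log2 RPKM over both libraries. Nearest to Adam8 was Mxd1, at 467 RPKM in PBS-treated and 173 RPKM in ELV-treated cells, at a distance of 0.14. Nearest to Pecam1 were Lpcat1, at 2.48 and 10.3 RPKM, and Ndufb4, at 2.60 and 10.3 RPKM. Nearest to Cd47 were Myo1g, at 26.04 and 56.17 RPKM, and Eif3h, at 26.3 and 54.3 RPKM. A likeness over 2 libraries is a match of level and ratio and says no more.

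**Figure D5:**
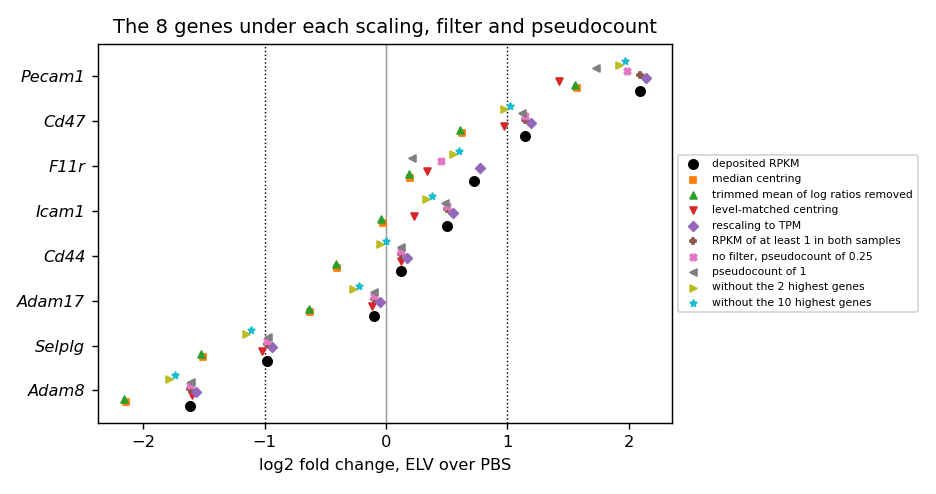
Log2 fold change (horizontal axis, ELV-treated over PBS-treated) of the 8 genes (vertical axis) from the deposited RPKM (black) and under each other scaling, filter and pseudocount, with the 2-fold limits dotted. Pecam1 stayed at or above 1.42 and Adam8 at or below -1.57, whereas Cd44 and Icam1 turned from positive to negative under median centring and trimmed mean removal, and Cd44 also without the 2 highest genes.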

How the data were processed

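Bone marrow neutrophils were treated with PBS or SDCSC exosomes, with 1 library each made by a TruSeq mRNA kit. The authors trimmed bases under a Phred score of 20, analysed the reads in CLC Genomics Workbench v8.0 and deposited 1 RPKM value per feature. The submitters' processing notes name the build mm10. The annotation, the strand setting and the handling of multiply mapped reads are not given in the sources used here.

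RPKM is not a count, and no count model was fitted. Depth was taken as the commonest number of mapped reads at which a feature under 0.01 RPKM would hold 1 read (225 of 918 such features within 0.5% in PBS-treated, 270 of 1064 in ELV-treated). Lengths were those of the longest GENCODE M21 transcript (GRCm38), which may differ from the exon models used. Reads estimated in this way served counting intervals alone, exact Clopper-Pearson for ratios and exact Poisson for levels. Of the features, 25 carry a number in place of a gene name and were not named.

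The 8 genes and all lists were chosen with earlier results of these data known. Named were the 8 genes, 17 partner genes, list genes changed at least 4-fold or otherwise the extremes, the nearest features and marker genes. Other genes of the lists were named after their values were seen. Some genes that this rule names are not reported here. No p-value was computed. The median log2 ratio, a trimmed mean (30% of ratios and 5% of levels at each end) or the median at like level was removed, or values were rescaled to TPM, filtered at an RPKM of at least 1, unfiltered with a pseudocount of 0.25, given a pseudocount of 1, or called at a ratio of 4. The scripts (Python 3.11.15, pandas 2.3.3, SciPy 1.17.1) were tested on simulated data.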

Additional observations from a re-analysis of the deposited data

How the results depend on the processing

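With 1 library per treatment, no setting can replace a spread between replicates, and no paired analysis was possible because each group has 1 library. The depth limits F11r most, with 53 and 106 estimated reads.

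Of 71 values of the 8 genes under other settings, 31 stayed within their counting interval and 40 moved. Pecam1, Cd47 and Adam8 kept their sign under all 9, Cd44 turned under 3 and Icam1 under 2. F11r has no value at an RPKM of at least 1. That filter cannot alter the log2 values of the other genes, which count among the 31 that stayed. A ratio of 4 alters no log2 value either. Median centring and trimmed mean removal subtract nearly the same value from every gene, so the 9 settings are not separate checks. Members called higher and lower, from 2 and 1, became 1 and 2 under median centring, under trimmed mean removal and under level-matched centring, and 1 and 0 at a ratio of at least 4. Their median log2 fold change of 0.31 became -0.21 under median centring, -0.23 with the trimmed mean removed, 0.18 with level-matched centring, 0.36 after rescaling to TPM, 0.13 at an RPKM of at least 1 and 0.17 with a pseudocount of 1. The median of all features became 0, -0.01, 0, 0.57, 0.45 and 0.41 under the same settings. Of all features kept, 31.5% were higher and 5.62% lower before these changes of setting. These shares became 16.8% and 13.2% under median centring, 13.3% and 13.2% under level-matched centring and 8.52% and 1.14% at a ratio of at least 4. Shares under the other settings were not computed.

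For the lists, median centring and trimmed mean removal both gave 8 lower selectin genes, 2 higher junctional genes, 2 higher and 6 lower sheddase genes, 1 higher and 4 lower ADAM17 substrates and 1 higher signalling gene. Under median centring 16.8% of all features kept were higher and 13.2% lower, and no such share was computed for trimmed mean removal. Level-matched centring gave 10 lower selectin genes, 3 higher junctional genes, 2 higher and 5 lower sheddase genes and 1 higher counter-receptor gene. Of all features kept, 13.3% were higher and 13.2% lower under level-matched centring. An RPKM of at least 1 and a pseudocount of 1 each left 0 higher counter-receptor genes. At a ratio of at least 4, higher and lower genes numbered 1 and 0 for selectin genes, 1 and 0 for junctional genes, 1 and 1 for sheddases, 0 and 0 for ADAM17 substrates, 1 and 1 for counter-receptors and 0 and 0 for signalling genes, where 8.52% and 1.14% of all features were called. The cause of these moves was not tested beyond what each setting subtracts.

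Settings chosen after the data were seen rescaled values without the genes of highest level. Without the 2 highest genes, 1 member was higher and 2 were lower, the median of the 8 was 0.14 and 2 sheddase genes were higher. Without the 10 highest, 2 members were lower and the median was 0.19. The shares of all features called were not computed without the highest genes.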
